A study of Homo sapiens with 14 samples.

Results

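The 38 genes described here encode the enzymes that charge transfer RNA (tRNA) with amino acids in human cells, with a pair of their scaffold proteins. They comprised 20 cytosolic aminoacyl-tRNA synthetases, 16 mitochondrial ones and the scaffold proteins AIMP1 and AIMP2, out of 59050 gene symbols counted. Members were taken by symbol. The table held all 38, of which 18 had an older symbol than the current one (AARS for AARS1, for example). Enzymes whose symbol ends in 2 were grouped as mitochondrial, and FARS2, whose cytosolic counterpart has 2 subunits with other names, was placed with them. GARS and KARS are counted as cytosolic, although each gene serves both compartments. All cells were wild-type HUES8, an established line of human embryonic stem cells, differentiated to definitive endoderm (DE), then early (PP1) and late (PP2) pancreatic progenitors. Each stage was profiled by sequencing of rRNA-depleted total RNA (RNA) and by sequencing of ribosome-bound RNA fragments (Ribo), with 2 DE, 2 PP1 and 3 PP2 libraries per assay. Every group is therefore 1 line grown in culture, and nothing in the labels says whether the libraries of a stage came from separate differentiations. P-values measure the spread between these libraries, which may be technical.

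Aminoacyl-tRNA synthetases join each amino acid to its tRNA, which sets the accuracy and the supply of substrate for translation. Cytosolic and mitochondrial enzymes serve separate ribosomes and are nearly all made by separate nuclear genes. In the cytosol, 8 of the enzyme genes (EPRS, IARS, LARS, MARS, QARS, RARS, KARS and DARS) make subunits of the multi-synthetase complex, which AIMP1 and AIMP2 help to hold together, and the other 12 lie outside it. Genes of several cytosolic enzymes are known targets of ATF4, the transcription factor of the amino acid response, which acts through a C/EBP-ATF response element.

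RNA libraries held 15107847 to 21009065 counts and Ribo libraries 4710335 to 24186949. In RNA, SOX17, CXCR4, CER1 and EOMES were highest in the DE libraries, PDX1 was at 0 there and present at PP1 and PP2, and NKX6-1 and PTF1A were highest at PP2, which fits the stage labels. PTPRC, the blood marker, stayed under 1 CPM (counts scaled to library size) in every library. Of the endocrine markers, INS and GCG did too, while CHGA had 47.1, 68.7 and 70.3 CPM in RNA at PP2, against 1.23 and 0.624 CPM at PP1. Of the neural markers, PAX6 had 99.2 and 104.8 CPM in RNA at DE, while SOX1 was under 1 CPM there. The pluripotent markers were also present in RNA at DE, with 27.8 and 29.7 CPM of POU5F1 and 11.6 and 14.4 CPM of NANOG. PAX6, SOX1, POU5F1 and NANOG were all under 1 CPM in RNA at PP1 and PP2. All 4 hepatic markers (AFP, TTR, APOA1, ALB) rose at PP1 against DE in RNA, and their sum was 7835 and 8401 CPM at PP1, against 13.8 and 14.6 CPM at DE. The summed mesenchymal markers (COL1A1, COL3A1, PDGFRB) were 313 and 358 CPM in RNA at PP1, against 51.8 and 62.1 CPM at DE, with COL3A1 at 0 at DE, and they were 304, 135 and 196 CPM at PP2. The higher sum at PP1 was that of the collagen genes. PDGFRB went the other way, with 5.62 and 6.08 CPM at PP1, against 8.49 and 9.30 CPM at DE (log2 -0.60 ± 0.27, not passed). Some libraries stood apart within PP2. In RNA, replicate 3 had 42.1 CPM of PDX1 and 4429 CPM of hepatic markers, and replicates 1 and 2 had 212 and 198 CPM of PDX1 and 1664 and 1921 CPM of hepatic markers. Among the synthetases, replicate 3 was over 1.5-fold above both other PP2 RNA libraries for 11 cytosolic and 5 mitochondrial enzymes, and over 1.5-fold below both for KARS and VARS. In Ribo, protein-coding genes took 95.0%, 43.9% and 79.7% of the counts in PP2 replicates 1, 2 and 3, against 28.1% to 35.2% at DE and PP1. Replicate 2 of PP2 was over 1.5-fold below both other PP2 Ribo libraries for 10 of 20 cytosolic enzymes. Results that rest on these libraries are given with and without them. The share of all genes that passed also changed with the library left out. Where that share is not given, such a count is not a result about the enzymes alone. The part of this difference, or of the hepatic, mesenchymal, endocrine, neural or pluripotent markers, in the results was not tested. In bulk samples, fewer cells of a type and less RNA per cell cannot be told apart.

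The C/EBP-ATF response element core, TGATGNAA, was searched for on both strands of the promoters. The window ran from 250 bases before to 50 after the annotated start used for each gene (GRCh38.p14). For TARS, CARS2, EARS2 and FARS2 that start lies inside the gene's span in RefSeq, so the window does not follow the gene's outermost start. Promoters were matched for 32 members, 16 cytosolic, 14 mitochondrial and both scaffold genes. The core was present in 6 of 16 cytosolic promoters (37.5%), in 1 of 14 mitochondrial ones (7.14%) and in neither scaffold promoter, and 598 of 22199 protein-coding promoters (2.69%) held it. The stretches of all 7 genes with a match are printed. Each runs 5′ to 3′ on the gene's own strand, with the core, or its reverse complement where it lies on the opposite strand, in capitals and up to 40 bases on either side.
AARS, chr16:70289646-70289733, minus strand: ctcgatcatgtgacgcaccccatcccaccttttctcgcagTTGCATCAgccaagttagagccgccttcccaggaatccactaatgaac
CARS, chr11:3057378-3057465, minus strand: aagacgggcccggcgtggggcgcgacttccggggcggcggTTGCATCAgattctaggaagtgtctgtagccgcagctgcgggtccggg
IARS, chr9:92293663-92293750, minus strand: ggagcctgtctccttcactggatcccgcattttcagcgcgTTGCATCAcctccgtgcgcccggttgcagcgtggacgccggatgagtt
MARS, chr12:57488024-57488111, plus strand: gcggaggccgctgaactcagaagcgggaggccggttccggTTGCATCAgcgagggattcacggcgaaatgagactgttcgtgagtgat
NARS, chr18:57621787-57621862, minus strand: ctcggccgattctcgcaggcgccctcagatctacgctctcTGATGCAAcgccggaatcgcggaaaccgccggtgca
TARS, chr5:33440927-33441014, plus strand: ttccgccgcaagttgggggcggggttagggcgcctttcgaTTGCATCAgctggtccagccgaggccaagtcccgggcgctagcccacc
YARS2, chr12:32756047-32756134, minus strand: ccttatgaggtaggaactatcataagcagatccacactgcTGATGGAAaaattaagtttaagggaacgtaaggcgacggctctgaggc

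All 6 cytosolic matches read TTGCATCA or its reverse complement, TGATGCAA. In 5 of them (CARS, IARS, MARS, NARS, TARS) the core began within 15 bases of the start used, which for TARS is not the outermost one. In AARS the core began 187 bases before the start used, and in YARS2 197 bases before it. GARS and SARS, whose RNA changed most between DE and PP1, have matched promoters without the core in this window. So do EPRS, which also rose in RNA at PP1, and WARS, which fell most between PP1 and PP2. YARS2, with the core, changed by log2 -0.20 ± 0.35 in RNA at PP1 against DE and did not pass. Whether the core goes with the changes was not tested. A match is only a run of letters, and binding was not measured here.

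The question the stages pose for these genes is how the charging enzymes of each compartment changed as endoderm became pancreatic progenitor. Summed over the 20 cytosolic genes, RNA levels were 2525 and 2393 CPM at DE, 5176 and 4827 CPM at PP1, and 2106, 2316 and 3735 CPM at PP2. Summed over the 16 mitochondrial genes, they were 564 and 576 CPM at DE, 518 and 532 CPM at PP1, and 511, 518 and 677 CPM at PP2. The cytosolic sum at PP1 thus lay above every DE and PP2 library, while the mitochondrial sums of PP1 lay below DE and within the range of PP2. The ratio of the sums was 4.32 ± 0.228 at DE (SD, n = 2), 9.53 ± 0.653 at PP1 (n = 2) and 4.704 ± 0.728 at PP2 (n = 3) in RNA. In Ribo it was 3.25 ± 0.219 at DE, 10.5 ± 1.52 at PP1 and 5.21 ± 0.995 at PP2. In Ribo the 3 stages did not overlap in this ratio, and in RNA the PP2 libraries spanned the DE ones. With 2 libraries a stage, these ratios are given as a description, without a test.

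**Figure D1:**
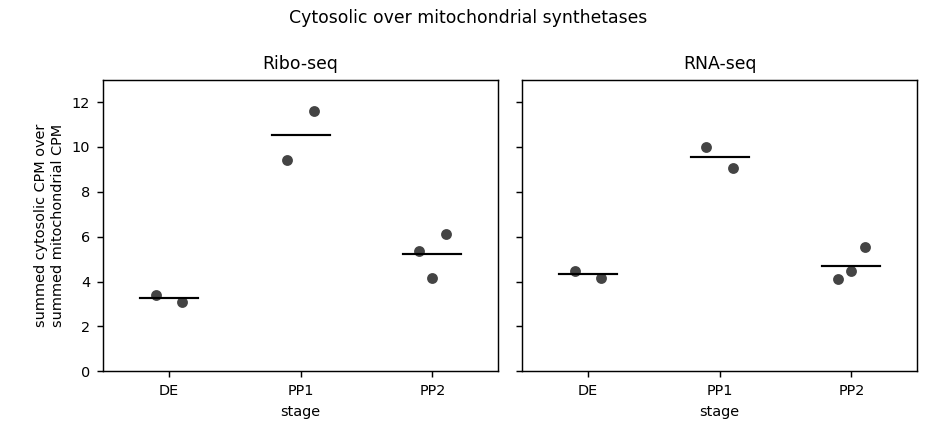
Ratio of summed cytosolic to summed mitochondrial synthetase levels (CPM over CPM, vertical axis) at each stage (horizontal axis), in Ribo (left) and RNA (right). Points are libraries and lines are stage means, and both PP1 libraries sit between 9.07 and 11.6 in either assay, above every DE and PP2 library.

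Per kilobase of gene model, the cytosolic enzymes had the higher median level at every stage. Their median RNA level was 24.16 CPM per kb at DE, 35.1 at PP1 and 23.9 at PP2, and that of the mitochondrial enzymes was 6.995, 5.35 and 5.79 CPM per kb at the same stages. NARS, the asparagine enzyme, had the highest mean RNA level per kb at DE (52.9) and PP2 (52.4). Its rank at PP2 rested on replicate 3, with 32.3, 36.5 and 88.2 CPM per kb in replicates 1, 2 and 3. QARS, with 38.5, 38.3 and 44.9, was above it in replicates 1 and 2. GARS, the glycine enzyme, led at PP1 with 133.5 ± 8.25 CPM per kb (SD, n = 2). Among the mitochondrial enzymes, IARS2, which charges isoleucine, was highest in RNA at all 3 stages, with means of 21.9, 24.4 and 24.3 CPM per kb. SARS2, the mitochondrial serine enzyme, was lowest in RNA at all 3 stages, between 1.17 and 1.63 CPM per kb. In Ribo the cytosolic median was 8.396 CPM per kb at DE, 22.6 at PP1 and 18.5 at PP2, and the mitochondrial median was 2.62, 3.03 and 3.46 CPM per kb.

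**Figure D2:**
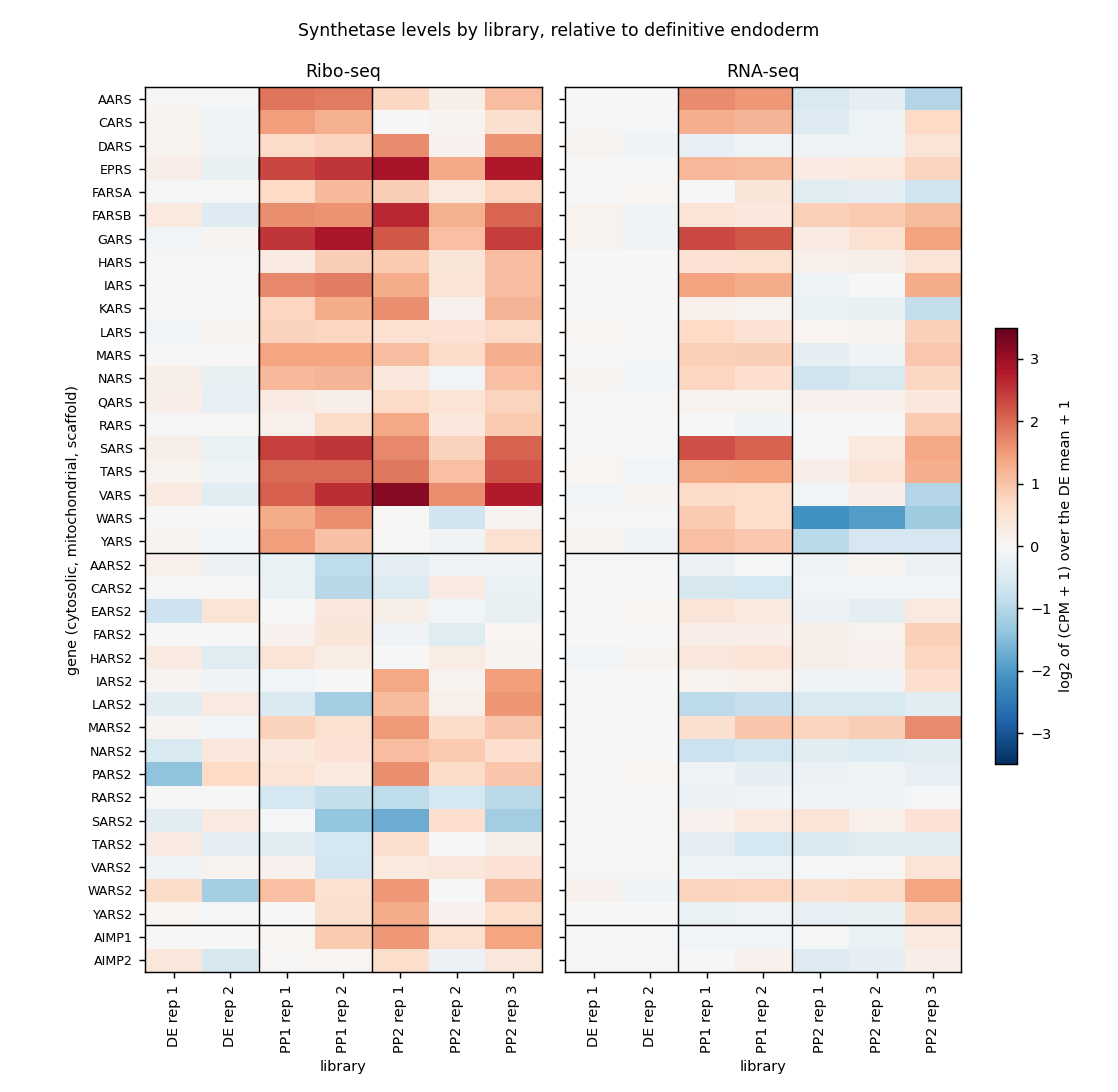
Level of each gene (rows) in each library (columns), in Ribo (left) and RNA (right), as log2 of CPM + 1 over the mean of the DE libraries + 1, a scale that understates changes of low genes. The cytosolic block is mostly red at PP1 in both assays (DARS and RARS are not in RNA), the mitochondrial block is mixed, and PP2 replicate 3 in RNA and replicate 2 in Ribo differ from their neighbours.

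In RNA, the cytosolic enzymes moved upward from DE to PP1 and the mitochondrial ones did not. Of 20 cytosolic enzymes, 7 rose at PP1 against DE, none fell and 13 did not pass (edgeR quasi-likelihood test, adjusted p under 0.05), where 12.3% of the 24603 genes tested rose and 24.3% passed in either direction. Their median log2 fold change was 0.73, against 0.01 over all genes, and 18 of 20 values were above 0. GARS had 557 and 510.2 CPM at PP1, against 122 and 102 CPM at DE, and rose by log2 2.25 ± 0.37 (SE; 4.76-fold, adjusted p = 0.00314). SARS, the serine enzyme, had 338 and 294 CPM at PP1, against 71.9 and 66.9 CPM at DE, and rose by log2 2.19 ± 0.41 (4.55-fold, adjusted p = 0.0061). Both PP1 libraries were thus more than 4-fold above either DE library for these genes. Of all genes tested, 36.3% had PP1 libraries above both DE libraries without overlap.

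AARS, which charges alanine and carries the core 187 bases before its start, had 411 and 372.5 CPM at PP1, against 131 and 129 CPM at DE (log2 1.59 ± 0.25, adjusted p = 0.00261). TARS, the threonine enzyme, had 346 and 354 CPM at PP1, against 142 and 127 CPM at DE (log2 1.38 ± 0.34, adjusted p = 0.0197). CARS, the cysteine enzyme, had 143.5 and 135.5 CPM at PP1, against 60.1 and 57.4 CPM at DE (log2 1.25 ± 0.36, adjusted p = 0.0366). For each of these 3 genes the PP1 libraries lay above both DE libraries by at least 2-fold. EPRS, a single protein that charges both glutamate and proline, rose by log2 1.15 ± 0.22 (adjusted p = 0.00707), and YARS, the tyrosine enzyme, by log2 1.003 ± 0.21 (adjusted p = 0.00959). IARS, whose promoter holds the core, had 698 and 644 CPM at PP1, against 266 and 257 CPM at DE. Its fold change was 2.56, and it did not pass (log2 1.36 ± 0.46, adjusted p = 0.0636). MARS and NARS, which also hold the core, did not pass (log2 0.86 ± 0.39 and 0.67 ± 0.44). Without RNA PP2 replicate 3, which enters this test only through the shared estimate of spread, 15 cytosolic enzymes rose, IARS, MARS and NARS among them, where 49.8% of all genes passed. Counts were 2 without either DE library and 3 without either PP1 library, with a lone library assumed to vary like the other stages.

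Few mitochondrial enzymes passed in this comparison, and those that did fell. Of 16, 3 fell at PP1 against DE in RNA, none rose and 13 did not pass. Of all genes, 12% fell and 24.3% passed in either direction, so the count does not set the class apart. The class median was log2 -0.15, with 7 values above 0 and 9 below. LARS2, which charges leucine in mitochondria, had 43.5 and 47.3 CPM at PP1, against 80.1 and 85.4 CPM at DE (log2 -0.87 ± 0.18, adjusted p = 0.00832). NARS2, the asparagine enzyme, had 18.2 and 19.7 CPM at PP1, against 31.0 and 31.8 CPM at DE (log2 -0.73 ± 0.17, adjusted p = 0.0171). CARS2, the cysteine enzyme, had 32.8 and 31.7 CPM at PP1, against 48.8 and 49.5 CPM at DE (log2 -0.61 ± 0.16, adjusted p = 0.0277). The stages did not overlap for any of the 3 genes, which held, with PP1 lower, for 36% of all genes. LARS2 and NARS2 overlap antisense genes and CARS2 overlaps ING1, and the strand setting of the counting was not given in the sources used here. Without RNA PP2 replicate 3, 4 mitochondrial enzymes rose (EARS2, HARS2, MARS2, WARS2) and 4 fell, TARS2 being the fourth. Without any 1 of the DE or PP1 libraries none passed, and without PP2 replicate 1 or 2 there were 2.

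**Figure D3:**
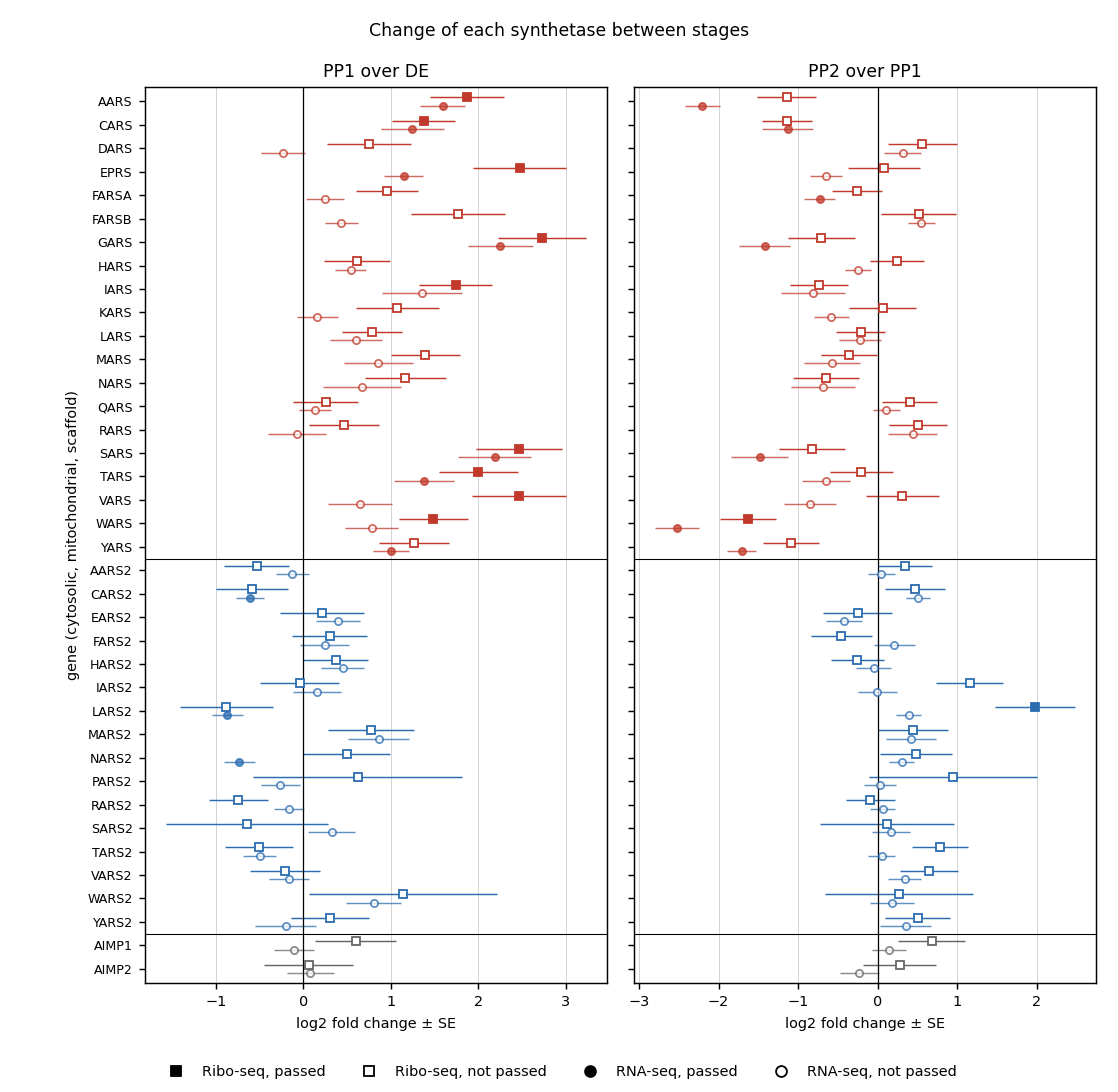
Log2 fold change with its standard error for each gene (rows), PP1 over DE (left) and PP2 over PP1 (right), with squares for Ribo, circles for RNA and filled symbols for genes that passed (red cytosolic, blue mitochondrial, grey scaffold). At PP1 all 20 cytosolic squares lie right of 0, and at PP2 the 7 filled red circles lie left of it.

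Ribosome-bound reads of the cytosolic enzymes were also higher at PP1. Of 20 cytosolic enzymes, 9 rose against DE and none fell, where 4.52% of the 15067 genes tested rose, 3.01% fell and 7.53% passed in either direction. Their median log2 fold change was 1.38, against -0.04 over all genes, and all 20 values were above 0. GARS had 197 and 252 CPM at PP1, against 31.6 and 36.4 CPM at DE (log2 2.72 ± 0.50, 6.61-fold, adjusted p = 0.00777). EPRS had 98.5 and 110.0 CPM at PP1, against 22.2 and 15.4 CPM at DE (log2 2.47 ± 0.53, adjusted p = 0.0175). SARS had 273 and 293 CPM at PP1, against 58.7 and 43.8 CPM at DE (log2 2.47 ± 0.49, adjusted p = 0.0116). These 3 genes had both PP1 libraries at least 4-fold above both DE libraries, and 29.7% of all genes had PP1 above DE without overlap.

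VARS, the valine enzyme, had 47.4 and 67.1 CPM at PP1, against 13.1 and 7.61 CPM at DE (log2 2.46 ± 0.54, adjusted p = 0.0186). TARS had 174 and 174 CPM at PP1, against 47.7 and 39.3 CPM at DE (log2 1.9999 ± 0.45, adjusted p = 0.0221). AARS, IARS, WARS (the tryptophan enzyme) and CARS also rose, by log2 1.87, 1.74, 1.49 and 1.37. Of these 9 genes, AARS, CARS, EPRS, GARS, SARS and TARS had also passed in RNA, and IARS, VARS and WARS had not. QARS, which charges glutamine, had the smallest Ribo change (log2 0.25 ± 0.37), and its libraries overlapped between PP1 and DE. No mitochondrial enzyme passed in Ribo with edgeR (1 of 16 at an unadjusted p under 0.05) or with DESeq2, and their median was log2 0.09, or -0.19 without DE replicate 1. Of 15067 genes, 3335 had an unadjusted p under 0.05 with edgeR. Without any 1 of the DE or PP1 Ribo libraries, 0 or 1 cytosolic enzymes passed, and without PP2 replicate 2 there were 14. With replicate 2 as the sole PP2 library, 16 cytosolic enzymes rose, where 17.8% of all genes passed.

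From PP1 to PP2 the direction of the cytosolic enzymes turned in RNA. Of 20, 7 fell at PP2 against PP1 and none rose, where 10.6% of all genes tested fell, 7.8% rose and 18.4% passed in either direction. Their median was log2 -0.67, against 0.01 over all genes. The comparison shares the PP1 libraries with that of PP1 against DE, so a high PP1 level enters both. WARS had 53.5, 60.1 and 98.8 CPM at PP2, against 447 and 364 CPM at PP1 (log2 -2.52 ± 0.28, adjusted p = 0.00103). AARS had 89.3, 103 and 63.3 CPM at PP2, against 411 and 372.5 CPM at PP1 (log2 -2.202 ± 0.22, adjusted p = 0.00074). All 3 PP2 libraries were at least 3-fold below both PP1 libraries for both genes, and 27.2% of all genes had every PP2 library below PP1.

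YARS had 63.8, 82.6 and 82.7 CPM at PP2, against 258 and 242 CPM at PP1 (log2 -1.71 ± 0.19, adjusted p = 0.00101). SARS had 72.0, 87.5 and 180.1 CPM at PP2, against 338 and 294 CPM at PP1 (log2 -1.48 ± 0.36, adjusted p = 0.0242). GARS had 136, 162 and 299 CPM at PP2, against 557 and 510.2 CPM at PP1 (log2 -1.42 ± 0.32, adjusted p = 0.0187). In SARS and GARS the highest PP2 value was that of replicate 3, still below PP1. CARS fell by log2 1.13 ± 0.32 (adjusted p = 0.042) and FARSA, the alpha subunit of the phenylalanine enzyme, by 0.73 ± 0.20 (adjusted p = 0.0374). IARS, with 236, 262 and 647 CPM at PP2, overlapped PP1 through replicate 3 and did not pass. Without that library 16 cytosolic enzymes fell, FARSB alone rose (log2 0.48) and the median was log2 -0.93, where 41.4% of all genes passed. Without any other 1 library the count was 3 or 4, and WARS, AARS and YARS passed each time.

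No mitochondrial enzyme passed between PP2 and PP1 in RNA with edgeR (2 of 16 at an unadjusted p under 0.05) or with DESeq2. Of 24603 genes, 18.4% passed with edgeR and 8243 genes had an unadjusted p under 0.05. Their median was log2 0.17, and the values ran between -0.43 for EARS2, which charges glutamate, and 0.51 for CARS2. LARS2 had 57.3, 57.0 and 63.6 CPM at PP2, above PP1 and below DE in every library. Without PP2 replicate 3, 2 rose (CARS2, LARS2) and 2 fell (EARS2, IARS2).

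In Ribo, fewer members moved between PP1 and PP2. Among cytosolic enzymes WARS alone passed, with 57.2, 33.7 and 59.9 CPM at PP2, against 138 and 173 CPM at PP1 (log2 -1.63 ± 0.35, adjusted p = 0.0268), where 2.85% of genes fell and 5.01% passed in either direction. The class median was log2 -0.24, with 12 of 20 values below 0, and it was 0.04 without the filter on low counts. Among mitochondrial enzymes LARS2 alone passed, with 35.0, 18.1 and 47.8 CPM at PP2, against 10.8 and 6.39 CPM at PP1 (log2 1.97 ± 0.50, adjusted p = 0.0489), where 2.16% of genes rose. The libraries of the stages did not overlap for either gene, which held for 21.6% of genes with PP2 lower and 21.1% with PP2 higher, and LARS2 was the sole member of the 38 to rise here. Without Ribo PP2 replicate 2, 4 cytosolic enzymes fell and 1 rose, and 2 mitochondrial enzymes rose. The share over all genes in that setting is not given here. With replicate 2 as the sole PP2 library, 8 cytosolic enzymes fell (AARS, CARS, GARS, IARS, NARS, SARS, WARS, YARS), their median was log2 -0.92 and LARS2 did not pass. WARS did not pass without PP2 replicate 3 or any 1 DE or PP1 library, and LARS2 passed only when PP2 replicate 2 was the 1 library left out.

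At PP2 against DE, 7 cytosolic enzymes passed in Ribo and 3 in RNA. In RNA, FARSB rose (log2 0.98 ± 0.18, adjusted p = 0.00367), with 47.6, 50.2 and 57.2 CPM at PP2, against 28.6 and 23.7 CPM at DE, where 16.4% of genes rose and 33.5% passed in either direction. WARS fell by log2 1.73 ± 0.27 (adjusted p = 0.00183) and YARS by 0.71 ± 0.19 (adjusted p = 0.0203), where 17.1% of genes fell. Among mitochondrial enzymes MARS2, which charges methionine, rose by log2 1.27 ± 0.33 (adjusted p = 0.0183) and WARS2 by 0.98 ± 0.29 (adjusted p = 0.0315), and LARS2 fell by 0.48 ± 0.16 (adjusted p = 0.0462). MARS2 had 11.9, 12.8 and 22.9 CPM at PP2, against 6.65 and 6.45 CPM at DE, so replicate 3 was the highest of its stage. Without RNA PP2 replicate 3, 4 cytosolic enzymes rose and 8 fell, 2 mitochondrial enzymes rose and 3 fell, and 52.5% of all genes passed. Without DE replicate 2, WARS was the sole cytosolic enzyme to pass.

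In Ribo, 7 cytosolic enzymes rose at PP2 against DE and none fell, where 13.1% of genes rose and 27.6% passed in either direction. They were VARS (log2 2.77 ± 0.52), EPRS (2.55 ± 0.51), FARSB (2.28 ± 0.51), GARS (2.02 ± 0.47), TARS (1.79 ± 0.42), SARS (1.64 ± 0.45) and DARS (1.31 ± 0.45), with adjusted p between 0.00382 and 0.0496. FARSB, the beta subunit of the phenylalanine enzyme, had 38.7, 13.98 and 25.3 CPM at PP2, against 7.09 and 3.62 CPM at DE. The median was log2 0.99, with 19 of 20 values above 0, WARS being the exception at -0.14. No mitochondrial enzyme passed with edgeR (4 of 16 at an unadjusted p under 0.05) or with DESeq2, and their median was log2 0.35. Of 15067 genes, 6259 had an unadjusted p under 0.05 with edgeR. With replicate 2 as the sole PP2 library, EPRS, GARS, SARS, TARS and VARS rose and the cytosolic median was log2 0.51. Counts of cytosolic enzymes were 0 without DE replicate 2, 3 without DE replicate 1 and 14 without PP2 replicate 2, when 6 mitochondrial enzymes passed as well (IARS2, LARS2, MARS2, RARS2, SARS2, YARS2). PARS2 passed without DE replicate 2, where the DE library left held 0 counts of it.

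The Ribo change minus the RNA change, a measure of ribosome occupancy relative to RNA, was above 0 for all 20 cytosolic enzymes both at PP1 and at PP2 against DE. At PP1 against DE none of the 38 members passed the test of this difference with edgeR, where 0.269% of 14152 genes did and 0.0707% were higher, and none passed with DESeq2. At an unadjusted p under 0.05 there were 3 cytosolic enzymes and 1 mitochondrial one, and 1450 of the 14152 genes. The medians were log2 0.57 for cytosolic and 0.03 for mitochondrial enzymes, against 0.02 over all genes. At PP2 against PP1 none passed with either tool, where 0.0777% of genes did, and 1 mitochondrial enzyme had an unadjusted p under 0.05, as did 1486 of the 14152 genes. Without Ribo PP2 replicate 2, IARS2 and LARS2 passed in that comparison. At PP2 against DE, 2 cytosolic enzymes passed, VARS and EPRS, where 2.01% of genes were higher, 3.67% lower and 5.68% passed in either direction.

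VARS had 101.5, 33.8 and 76.6 CPM in Ribo at PP2, against 13.1 and 7.61 CPM at DE. Its RNA was 76.7, 97.3 and 39.5 CPM at PP2, against 76.9 and 87.1 CPM at DE. The Ribo libraries thus did not overlap between stages while the RNA libraries did, and the difference was log2 2.85 ± 0.62 (adjusted p = 0.0192). EPRS had 145, 48.3 and 137 CPM in Ribo at PP2, against 22.2 and 15.4 CPM at DE. Its RNA was 175, 183 and 248 CPM at PP2, against 143 and 143 CPM at DE, and the difference was log2 1.93 ± 0.53 (adjusted p = 0.0464). Mean Ribo over mean RNA for VARS was 0.126 at DE, 0.446 at PP1 and 0.993 at PP2, and for EPRS 0.131, 0.329 and 0.545. The median over cytosolic enzymes was log2 0.88 and over mitochondrial enzymes 0.01, and no mitochondrial enzyme passed with edgeR (3 of 16 at an unadjusted p under 0.05), while 3 passed with DESeq2. Of 14152 genes, 3764 had an unadjusted p under 0.05 with edgeR.

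With Ribo PP2 replicate 2 as the sole PP2 Ribo library neither VARS nor EPRS passed, and the cytosolic median was log2 0.30. With RNA PP2 replicate 3 left out as well, both passed again (VARS log2 1.601, EPRS 1.02), with MARS and WARS, where 8.47% of all genes passed. In that last setting 8 cytosolic enzymes rose at PP1 against DE (DARS, EPRS, FARSB, KARS, MARS, TARS, VARS, WARS) and no mitochondrial one did, where 9.33% of all genes passed. No cytosolic enzyme passed at PP2 against DE without either DE RNA library or without DE Ribo replicate 2, 4 did without RNA PP2 replicate 3 and 9 without Ribo PP2 replicate 2. Mitochondrial enzymes passed there without DE Ribo replicate 2 (NARS2, PARS2) or Ribo PP2 replicate 2 (IARS2, LARS2, RARS2, SARS2). Of the remaining libraries, each left VARS as the sole cytosolic enzyme to pass when it was left out.

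**Figure D4:**
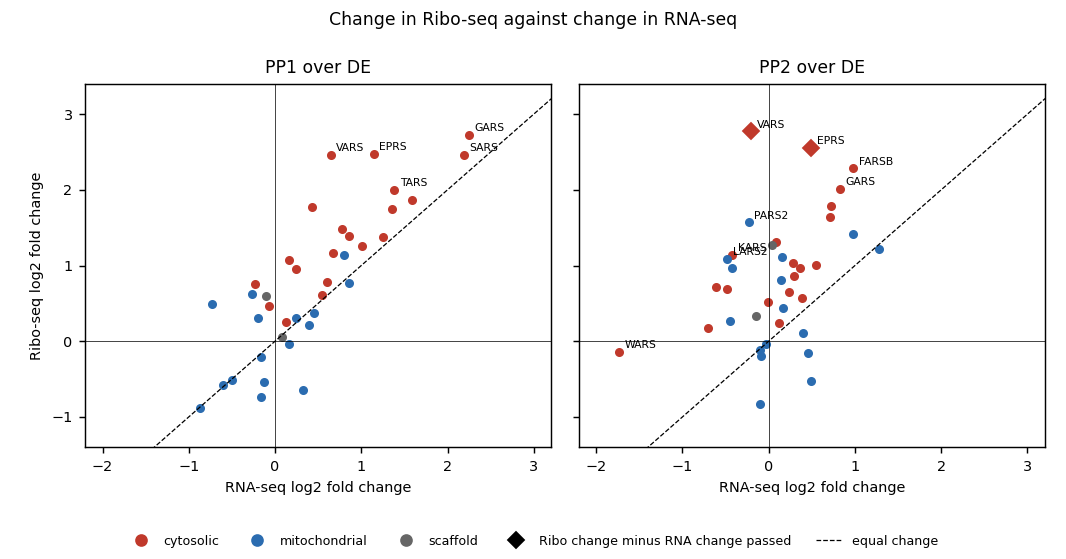
Ribo log2 fold change (vertical) against RNA log2 fold change (horizontal) for the 38 genes, PP1 over DE (left) and PP2 over DE (right), coloured by class, with diamonds for genes that passed the test of the difference. All 20 cytosolic points lie above the dashed line of equal change in both panels, and VARS and EPRS are the diamonds at PP2.

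Across the 38 members the changes in Ribo and RNA from DE to PP1 had a Pearson r of 0.82 and a Spearman rho of 0.80, and within the 20 cytosolic enzymes 0.78 and 0.80. Within the 16 mitochondrial enzymes they were 0.57 and 0.42. These are descriptions across genes, which are not independent replicates and share libraries. Counts were low for some mitochondrial enzymes in Ribo. WARS2 had 18 and 1 counts in the DE Ribo libraries, and PARS2, the proline enzyme, 0 and 18, so differences of these genes were not detectable at this depth.

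The multi-synthetase complex and the enzymes outside it differed in how many members passed. At PP1 against DE in RNA, 6 of the 12 cytosolic enzymes outside the complex rose (median log2 0.89), and 1 of the 8 within it did (EPRS; median 0.38), where 12.3% of all genes rose. In Ribo the counts were 7 of 12 (median log2 1.63) and 2 of 8 (EPRS and IARS; median 0.93), where 4.52% of all genes rose. At PP2 against PP1 in RNA, 7 of 12 fell outside the complex (median log2 -0.99), and none of 8 within it passed (median -0.40, 2 at an unadjusted p under 0.05 and none with DESeq2), where 10.6% of all genes fell. Of 24603 genes, 8243 had an unadjusted p under 0.05 in that comparison. At PP2 against DE the order of the medians was reversed. They were log2 1.02 within the complex and 0.79 outside it in Ribo, and 0.32 and 0.05 in RNA. The difference between these groups of genes was not tested. Without RNA PP2 replicate 3 members of the complex also fell at PP2, EPRS by log2 0.82, IARS by 1.42, LARS by 0.52, MARS by 1.08 and KARS by 0.40.

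Among the subunits, QARS and RARS, the glutamine and arginine enzymes, moved little in RNA at PP1. QARS had 178 and 177 CPM at PP1, against 159 and 166 CPM at DE, and RARS had 84.7 and 76.4 CPM, against 85.3 and 84.3 CPM. The leucine enzyme LARS had 275 and 241 CPM at PP1, against 179 and 162 CPM at DE (log2 0.60 ± 0.29, not passed). DARS, the aspartate enzyme, had 62.0 and 67.5 CPM at PP1, against 81.8 and 69.9 CPM at DE. In Ribo its levels were 36.3 and 39.5 CPM at PP1, against 24.5 and 20.5 CPM at DE, so the assays had opposite signs for this gene (RNA log2 -0.23 ± 0.25, Ribo 0.75 ± 0.48, neither passed). The complex thus held both EPRS and IARS, with large changes, and subunits whose RNA changed by less than log2 0.25.

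The scaffold protein AIMP1 had RNA levels of 24.4 and 22.8 CPM at DE, 22 and 21.8 CPM at PP1, and 22.4, 19.8 and 30.3 CPM at PP2, and did not pass in any RNA comparison. In Ribo it had 11.7 and 12.1 CPM at DE, 12.7 and 23.5 CPM at PP1, and 35.8, 17.7 and 32.9 CPM at PP2, and it rose at PP2 against DE (log2 1.28 ± 0.43, adjusted p = 0.0465). That call was lost under 9 of 13 alternatives, and AIMP1 overlaps TBCK on the genome. AIMP2 had 20.8 and 19.2 CPM in RNA at DE, 20.0 and 22.3 CPM at PP1, and 14.4, 15.9 and 23.8 CPM at PP2. Its Ribo levels were 13.8 and 6.52 CPM at DE, 10.5 and 10.7 CPM at PP1, and 16.1, 8.67 and 13.6 CPM at PP2, and it passed in none of the comparisons.

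GARS and KARS each supply both compartments from 1 gene, and their values differed. KARS, the lysine enzyme, had 118 and 119 CPM in RNA at DE, 135 and 130.2 CPM at PP1, and 101, 99.1 and 65.7 CPM at PP2. In Ribo it had 33.9 and 33.5 CPM at DE, 57.9 and 84.2 CPM at PP1, and 106, 37.8 and 78.4 CPM at PP2. KARS did not pass in any of the 9 comparisons, while GARS passed in 4 of them. Leaving both genes out of the cytosolic class gave the same medians at PP1 against DE (RNA 0.73, Ribo 1.38).

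Enzymes for the same amino acid could be set against each other in 17 pairs, in which EPRS and FARS2 each appear more than once. At PP1 against DE the cytosolic partner had the higher log2 fold change in 15 of 17 pairs in RNA (median difference 1.201) and in 17 of 17 in Ribo (median difference 1.67). At PP2 against PP1 it had the higher one in 2 of 17 pairs in RNA and 5 of 17 in Ribo, with median differences of -0.94 in both assays. HARS and HARS2, for histidine, lie head to head on chromosome 5 with 84 bases between their annotated starts (GRCh38.p14). HARS had 58.1 and 59.1 CPM in RNA at PP1, against 40.7 and 39.8 CPM at DE, and HARS2 had 37.5 and 40.3 CPM at PP1, against 26.5 and 30.4 CPM at DE. Their RNA changes were log2 0.54 ± 0.18 and 0.45 ± 0.24, neither passed, and at PP2 against PP1 they were -0.25 and -0.05. In Ribo the HARS libraries had 37.1 and 55.8 CPM at PP1, against 31.4 and 29.2 CPM at DE, and the HARS2 libraries 34.7 and 30.2 CPM at PP1, against 31.7 and 18.5 CPM at DE.

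The tryptophan pair moved in opposite directions between DE and PP2 in RNA. WARS RNA was 53.5, 60.1 and 98.8 CPM at PP2, against 243 and 228 CPM at DE, where 17.1% of all genes fell. WARS2 RNA was 17.5, 19.0 and 31.9 CPM at PP2, against 12.8 and 10.3 CPM at DE, where 16.4% of all genes rose. At PP1 against DE their RNA changes were alike in size (log2 0.78 ± 0.30 for WARS and 0.80 ± 0.31 for WARS2, neither passed). In Ribo WARS had 57.2, 33.7 and 59.9 CPM at PP2, against 55.0 and 56.1 CPM at DE (log2 -0.14 ± 0.35, not passed). WARS2 was under 7 CPM in every Ribo library. WARS was the gene with the largest fall of the 38 between PP1 and PP2 in RNA.

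By catalytic fold, the synthetases form classes I and II, whose active sites have unlike architectures, and EPRS, with an enzyme of each class, was left out. At PP1 against DE in RNA, 2 of 9 cytosolic class I enzymes rose (CARS, YARS; median log2 0.78) and 4 of 10 class II enzymes did (AARS, GARS, SARS, TARS; median 0.61), where 12.3% of all genes rose. In Ribo 4 of 9 class I enzymes (median log2 1.37) and 4 of 10 class II enzymes (median 1.47) rose, where 4.52% of all genes did. At PP2 against PP1 in RNA, 3 of 9 and 4 of 10 fell, with medians of log2 -0.81 and -0.67, where 10.6% of all genes fell. FARSA and FARSB, the subunits of the same class II enzyme, differed in RNA at PP2. FARSA had 46.4, 49.4 and 37.7 CPM at PP2, against 58.9 and 65.7 CPM at DE, while FARSB was above DE in all 3 PP2 libraries.

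Genes of amino acid supply and the ATF4 response were counted in the same comparisons. Of 18 such genes, 12 rose at PP1 against DE in RNA and none fell, with a median of log2 2.68, where 12.3% of all genes rose. In Ribo 9 rose, with a median of log2 2.39, where 4.52% of all genes did. At PP2 against PP1, 6 fell in Ribo (median log2 -0.96), where 2.85% of all genes did, and 10 in RNA (median -1.32), where 10.6% did, and none rose in either assay. The likeness of this list to the synthetases was not tested. TRIB3, a pseudokinase induced by ATF4, had 103.5 and 97.99 CPM in RNA at PP1, against 1.602 and 1.53 CPM at DE (log2 6.001 ± 0.93, adjusted p = 0.00227). ASNS, which makes asparagine, had 34.1 and 35.9 CPM at PP1, against 2.85 and 1.46 CPM at DE (log2 4.01 ± 0.55, adjusted p = 0.00123). PHGDH, the first enzyme of serine synthesis, had 504 and 530.0 CPM at PP1, against 85.8 and 80.1 CPM at DE (log2 2.64 ± 0.28, adjusted p = 0.000364).

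ATF4 itself had 747 and 694 CPM in RNA at PP1, against 362 and 354 CPM at DE, and did not pass in RNA or in Ribo. DDIT3, a stress-induced transcription factor gene of this list that overlaps MARS on chromosome 12, rose by log2 3.93 ± 0.53 in RNA (adjusted p = 0.00115). Reads of DDIT3 and MARS may not be told apart where they overlap. EIF2AK4 and GCN1, the kinase and its partner that sense uncharged tRNA, did not pass in RNA at PP1 (log2 -0.32 ± 0.17 and -0.22 ± 0.37).

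At PP1 against DE in RNA, genes that act beside the enzymes moved less than the cytosolic enzymes, whose median was log2 0.73. There 12.3% of 24603 genes rose, 12% fell and 8818 genes had an unadjusted p under 0.05. At PP2 against DE in RNA the partner genes had a median of log2 0.37, against 0.26 for the cytosolic enzymes. Of 9 partner genes, which include the scaffold protein EEF1E1, the subunits of the mitochondrial glutamyl-tRNA amidotransferase (GATB, GATC, QRSL1) and the deacylases DTD1 and DTD2, which remove D-amino acids from tRNA, none passed at PP1 against DE in RNA with edgeR (median log2 0.12, 2 at an unadjusted p under 0.05). GATC rose at PP2 against PP1 (log2 0.86 ± 0.22, adjusted p = 0.0281), where 7.8% of all genes rose. EEF1E1 rose at PP2 against DE in RNA (log2 0.95 ± 0.25), and QRSL1 rose in RNA (log2 1.03 ± 0.29) and in Ribo (log2 1.93 ± 0.48, adjusted p = 0.015). Of all genes, 16.4% rose at PP2 against DE in RNA and 13.1% in Ribo. Of 9 mitochondrial translation factors, GFM2, a factor that recycles mitochondrial ribosomes, fell at PP1 against DE in RNA, with 40.8 and 42.7 CPM at PP1, against 82.7 and 85.9 CPM at DE (log2 -1.01 ± 0.30, adjusted p = 0.0417), and none rose. TUFM, the mitochondrial elongation factor that brings charged tRNA to the ribosome, had 146 and 153 CPM at PP1, against 111 and 121 CPM at DE, and did not pass. The median over these factors was log2 -0.05. MTRF1, a release factor, rose at PP2 against PP1 in RNA (log2 0.66 ± 0.18), where 7.8% of all genes rose. At PP2 against DE in RNA, MRRF rose (log2 0.78 ± 0.21) and GFM2 fell (log2 -0.88 ± 0.27), and in Ribo GFM1, an elongation factor, rose (log2 1.64 ± 0.47). Of all genes, 16.4% rose and 17.1% fell there in RNA, and 13.1% rose in Ribo. TSFM, another elongation factor, had 0 Ribo counts in both DE libraries and passed in Ribo at PP1 and at PP2 against DE, and no fold is given against that floor. In those comparisons 4.52% and 13.1% of all genes rose.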

How the data were processed

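RNA-seq of rRNA-depleted total RNA and Ribo-seq were compared in 14 libraries of HUES8 cells. The deposited table holds raw read counts per gene symbol, with gene lengths. Per the submitters' processing notes, cutadapt 1.18, Bowtie 1.2, STAR 2.7.1a and featureCounts 1.6.4 were used with hg38. The strand setting and the treatment of reads that fit several genes are not given in the sources used here, so values of overlapping genes and of near-identical copies are uncertain.

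From these counts, each assay was fitted over its 7 libraries with edgeR 4.0.16 in R 4.3.3 (filterByExpr defaults, TMM scaling, quasi-likelihood F test), with Benjamini-Hochberg adjustment over all genes tested and an adjusted p under 0.05. Standard errors were derived from the F statistic. The Ribo change minus the RNA change was tested as an interaction over all 14 libraries, in genes that passed the filter in each assay. CPM values use the scaled library sizes. Levels between genes were compared per kb of the table's gene length. The fits were tested on simulated data. Counting error depends on depth, which in Ribo was 4710335 to 24186949 counts in all but much less over protein-coding genes.

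Alternatives were DESeq2 size factors, no filter on low counts, the DESeq2 1.42.0 Wald test, protein-coding genes only, a replicate block, each library left out, Ribo PP2 by replicate 2 only, and classes without FARS2 or without GARS and KARS. Values are given in every library for the 5 cytosolic and 3 mitochondrial enzymes with the largest change among those that passed in the stage steps, members that passed against their class or in the interaction, AIMP1, AIMP2, GARS, KARS and the HARS and WARS pairs. The members, gene lists and tests were chosen with earlier results of these data known.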

Additional observations from a re-analysis of the deposited data

Results flagged for a closer look

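The stage change differed between the assays for 2 members, by the edgeR test of the interaction at PP2 against DE. For VARS the Ribo change exceeded the RNA change by log2 2.85 ± 0.62 (SE, adjusted p = 0.0192), and for EPRS by log2 1.93 ± 0.53 (adjusted p = 0.0464). In both genes the lowest PP2 Ribo library was replicate 2, whose counts were 43.9% protein-coding, against 95.0% and 79.7% in replicates 1 and 3. Neither passed with replicate 2 as the sole PP2 Ribo library, and the part of library composition in these values was not tested.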

How the results depend on the processing

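No member that passed changed sign under any alternative, but several class medians did. The cytosolic median for PP2 against PP1 in Ribo, log2 -0.24, was 0.04 without the filter on low counts. The medians for PP2 against DE in RNA, 0.26 for cytosolic and 0.06 for mitochondrial enzymes, were -0.05 and -0.11 without PP2 replicate 3 and -0.05 and -0.12 with the replicate block. The mitochondrial median for PP1 against DE in Ribo, 0.09, was -0.19 without DE replicate 1. For the Ribo minus RNA difference at PP2 against PP1 the cytosolic median, 0.28, was -0.25 with Ribo PP2 by replicate 2 only, and the mitochondrial medians of this difference took both signs in all 3 comparisons. Leaving out 1 library at a time gave 2 to 15 cytosolic and 0 to 8 mitochondrial enzymes for PP1 against DE in RNA, 3 to 17 and 0 to 4 for PP2 against PP1, and 1 to 12 and 0 to 5 for PP2 against DE. In Ribo the same gave 0 to 14 cytosolic enzymes for PP1 against DE, 0 to 5 cytosolic and 0 to 2 mitochondrial for PP2 against PP1, and 0 to 14 and 0 to 6 for PP2 against DE. For the Ribo minus RNA difference it gave 0 to 2 mitochondrial enzymes for PP2 against PP1, and 0 to 9 cytosolic and 0 to 4 mitochondrial for PP2 against DE. With DESeq2 size factors, 1 mitochondrial enzyme passed for PP2 against PP1 in RNA, 0 in Ribo, and 1 for PP2 against DE in Ribo. Without the filter on low counts, 11 cytosolic enzymes passed for PP2 against PP1 and 6 for PP2 against DE in RNA. In Ribo that setting gave 0 cytosolic and 2 mitochondrial enzymes for PP2 against PP1 and 3 mitochondrial for PP2 against DE, and for the Ribo minus RNA difference at PP2 against DE 4 and 1. The DESeq2 Wald test gave 4 cytosolic enzymes for PP2 against PP1 in Ribo, and 5 cytosolic and 3 mitochondrial for the difference at PP2 against DE. With protein-coding genes only, 2 mitochondrial enzymes passed for PP2 against PP1 in RNA. In Ribo that setting gave 3 cytosolic enzymes for PP2 against PP1 and 1 mitochondrial for PP2 against DE, and 1 cytosolic passed for the difference at PP2 against DE. With Ribo PP2 by replicate 2 only, 16 cytosolic enzymes passed for PP1 against DE, 8 cytosolic and 0 mitochondrial for PP2 against PP1 in Ribo, and 0 cytosolic for the difference at PP2 against DE. With RNA PP2 replicate 3 left out as well, a setting chosen after seeing the data, 8 and 4 cytosolic enzymes passed for the difference at PP1 and at PP2 against DE. Between same-numbered libraries, correlations of deviations from the stage mean ran from -0.25 to 0.15. With 2 libraries a stage at DE and PP1, these deviations mirror each other. The check therefore cannot show whether same-numbered libraries belong together. Within an assay's fit the replicate block gives PP2 replicate 3 its own term, since number 3 occurs only at PP2. It is therefore close to leaving that library out and is not a separate check. With the block, 15 cytosolic and 8 mitochondrial enzymes passed for PP1 against DE in RNA. The counts were 17 and 4 for PP2 against PP1, and 12 and 6 for PP2 against DE. In Ribo the block gave 5 cytosolic for PP1 against DE, 0 and 0 for PP2 against PP1 and 3 cytosolic for PP2 against DE, and 1 cytosolic for the difference at PP2 against DE. The share of all genes that passed changed with the setting too, so these counts are not results about the enzymes alone. The causes were not tested. Where leaving out a DE or PP1 library leaves 1 in its stage, that library is assumed to vary like the others. Ribo depth limits the mitochondrial enzymes most, since several had under 20 counts in a DE or PP1 library.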
